A study of Mus musculus with 21 samples.

Results

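The peaks described here are those that overlap chr19:5785000-5860000 of the mouse genome build mm9, a window that holds the neighbouring long noncoding RNA genes Malat1 (gene identifier 72289) and Neat1 (66961). A peak is a stretch of the genome where DNA fragments recovered with an antibody pile up. All peaks of 12 deposited lists were searched for an overlap of at least 1 bp with the window, and 63 of 53536 peaks met the rule. The locus was chosen by the numbers of peaks themselves, since Foxa3 peaks had been seen to crowd there, so counts in the window describe the choice and carry no test.

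Chromatin immunoprecipitation followed by sequencing was carried out on mouse embryonic fibroblasts of the C57BL/6 strain, prepared at 13.5 days post coitum. All cells received a retrovirus for Hnf4a together with a retrovirus for Foxa1, Foxa2 or Foxa3, and are called the Foxa1, Foxa2 and Foxa3 line below. Cells of each line were taken 48 hours after infection, and others as iHep cells, which are hepatocyte-like cells made from the fibroblasts. The titles give the 48-hour Foxa3 line replicate number 1 and the iHep Foxa3 line replicate number 3, with a different code at the end of the title, and no label says that both come from 1 infection. Stage and preparation therefore cannot be told apart. The iHep Foxa1 and Foxa2 lines also differ from the iHep Foxa3 line in title code and replicate number. The 48-hour Foxa1 line differs from the 48-hour Foxa3 line in title code. Line and preparation cannot be told apart in these comparisons either. In each line and stage 1 library was precipitated for the line's own Foxa protein and 1 for Hnf4a, so every group has 1 library and no p-value is given. No group without the viruses is among these lists, each Foxa protein was mapped in its own line with its own antibody, and a difference between proteins, antibodies and lines cannot be told apart.

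Malat1 RNA is an abundant nuclear RNA that gathers at nuclear speckles, and a small tRNA-like RNA named Mascrna is cut from its end. Neat1 RNA is the scaffold of paraspeckles, nuclear bodies that hold back certain RNAs and proteins, and it is made in a short and a long form. Foxa proteins are forkhead factors that can bind closed chromatin, Hnf4a is a nuclear receptor, and both are known for their part in liver gene expression.

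In the RefSeq table of assembly GRCm38.p6 Malat1, Mascrna and Neat1 follow one another along chromosome 19, and the protein-coding genes Frmd8, Slc25a45 and Tigd3 come next after Neat1. That table is not on mm9, so no peak was placed in an exon, an intron or a promoter, and no block of peaks was assigned to Malat1 or to Neat1. A promoter sequence was found in the RefSeq table for Malat1 and not for Neat1. It is shown because it is the only sequence of the locus held by the tables used here, on the minus strand of GRCm38.p6, from 250 bases before the transcription start to 50 bases after it, with the transcribed bases in capitals.
Malat1 promoter: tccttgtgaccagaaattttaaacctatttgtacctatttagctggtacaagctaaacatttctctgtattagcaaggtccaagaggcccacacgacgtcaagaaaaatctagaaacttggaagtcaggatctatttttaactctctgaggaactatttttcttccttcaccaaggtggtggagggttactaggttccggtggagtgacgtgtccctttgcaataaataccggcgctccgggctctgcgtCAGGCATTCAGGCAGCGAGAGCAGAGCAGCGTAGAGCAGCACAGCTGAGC
The forkhead letters TGTTTAC, the forkhead letters TATTTAC and the Hnf4a letters CAAAGTCCA, of which no pair can match the same bases in full, were searched on both strands, and 0 matches of each were found in these 300 bases. Over all 32851 RefSeq promoter windows of that length 3.65%, 3.04% and 0.475% held them. The absence says only that these letters are not in this window.

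Peaks at the locus came almost wholly from Foxa3. The Foxa3 list held 13 peaks in the window at 48 hours and 46 in iHep cells, from lists of 5690 and 12661 peaks. Of the other 10 lists, the 48-hour Foxa2 list held 1 peak and the iHep Hnf4a list of the Foxa3 line held 3. The 48-hour Foxa1, iHep Foxa1 and iHep Foxa2 lists held 0, and so did all 3 Hnf4a lists at 48 hours and the iHep Hnf4a lists of the Foxa1 and Foxa2 lines. Windows of this length were empty more often than not in each of these lists. Of tiles of this length, laid out as described below, 15.6% held a peak of the 48-hour Foxa1 list. The share was 8.4% for the iHep Foxa1 list and 20.3% for the iHep Foxa2 list. For the 3 Hnf4a lists at 48 hours it was at most 0.753%, and the iHep Hnf4a shares are given below. An empty window was therefore the usual state in these lists and is no sign of a contrast with Foxa3. A list with 0 peaks has no stretch above its caller's threshold, which is not a measure of no binding, and the depth of each library is unknown.

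**Figure D1:**
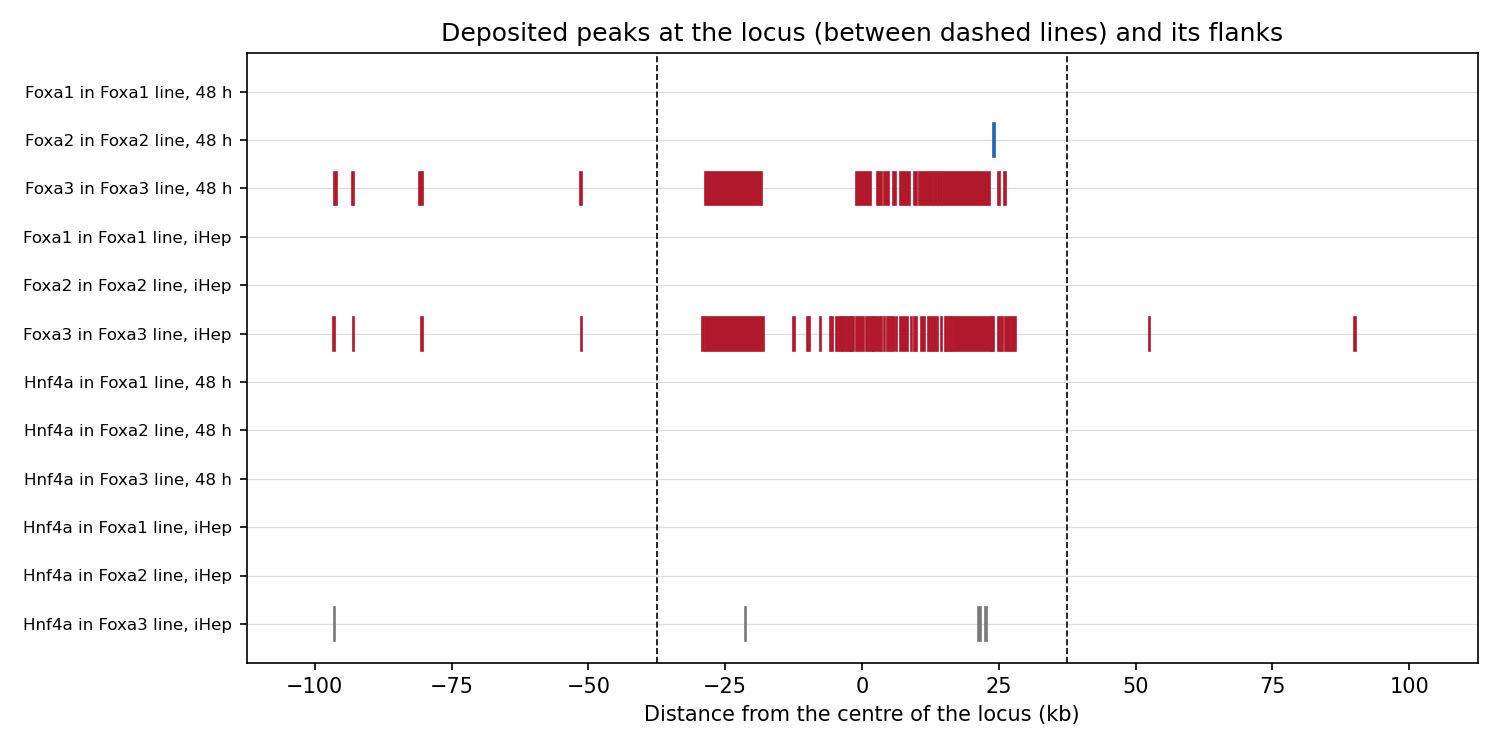
Each row is 1 of the 12 peak lists and each block is a deposited peak, drawn to scale along the distance in kb from the centre of the locus, with dashed lines at the edges of the locus. The 13 and 46 Foxa3 peaks fill much of the locus, while the flanks hold 4 Foxa3 peaks at 48 hours and 6 in iHep cells.

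The density of Foxa3 peaks was read against tiles of the same length as the window laid end to end over all chromosomes, 35179 in number. Tiles with at least 13 peaks made up 0.0114% of tiles in the 48-hour Foxa3 list, which is 4 tiles, and the tile that covers most of the locus was itself the fourth. In the iHep Foxa3 list tiles with at least 46 peaks made up 0.00284% of tiles. This was 1 tile, again the one at the locus, and the next densest tile held 32 peaks. With peaks within 500 bp merged the iHep locus held 10, and 12 tiles (0.0341%) held at least as many, up to 15. The mean tile held 0.163 Foxa3 peaks at 48 hours and 0.361 in iHep cells. For the single 48-hour Foxa2 peak the share of tiles with at least as many was 15.2%, and for the 3 iHep Hnf4a peaks it was 0.515%.

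Seen from the lists, the locus held 0.228% of 48-hour Foxa3 peaks (exact 95% binomial interval 0.122% to 0.390%) and 0.363% of iHep Foxa3 peaks (0.266% to 0.484%). These intervals cover counting error alone, and neighbouring peaks are not independent. Because the peaks were wide, the locus held more of the bases than of the peaks, at 0.816% of all bases inside 48-hour Foxa3 peaks and 0.780% in iHep cells. Within the window, 30978 bases (41.3%) lay inside a 48-hour Foxa3 peak and 35514 bases (47.4%) inside an iHep Foxa3 peak. The order of the stages changed with how the lists were cut by score. With the iHep Foxa3 list reduced by score to the 5690 peaks of the 48-hour list, a setting chosen after seeing the data, it held 10 peaks over 22978 bases, fewer than the 13 peaks over 30978 bases at 48 hours. In the upper 50% of each list by score, 8 peaks covered 27065 bases at 48 hours and 11 covered 23340 in iHep cells. Foxa2 covered 424 bases (0.565%) at 48 hours, and Hnf4a of the iHep Foxa3 line covered 916 bases (1.22%).

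The flanks of 75 kb on either side were sparse in comparison. The flank before the locus held 4 Foxa3 peaks at each stage, which covered 2.67% of its bases at 48 hours and 1.86% in iHep cells. The flank after it held 0 Foxa3 peaks at 48 hours and 2 in iHep cells, which covered 0.752%. All 4 Foxa3 peaks of the first flank overlapped between the stages, and the 2 of the second had no 48-hour partner. Over the whole lists 74.2% of 48-hour Foxa3 peaks overlapped an iHep one, and 43.8% of iHep Foxa3 peaks a 48-hour one. Counts this small cannot be told from these shares. The remaining lists were empty in both flanks, apart from 1 Hnf4a peak of the iHep Foxa3 line at chr19:5725998-5726168. This peak lay on an iHep Foxa3 peak, and 37.7% of that Hnf4a list overlapped one.

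**Figure D2:**
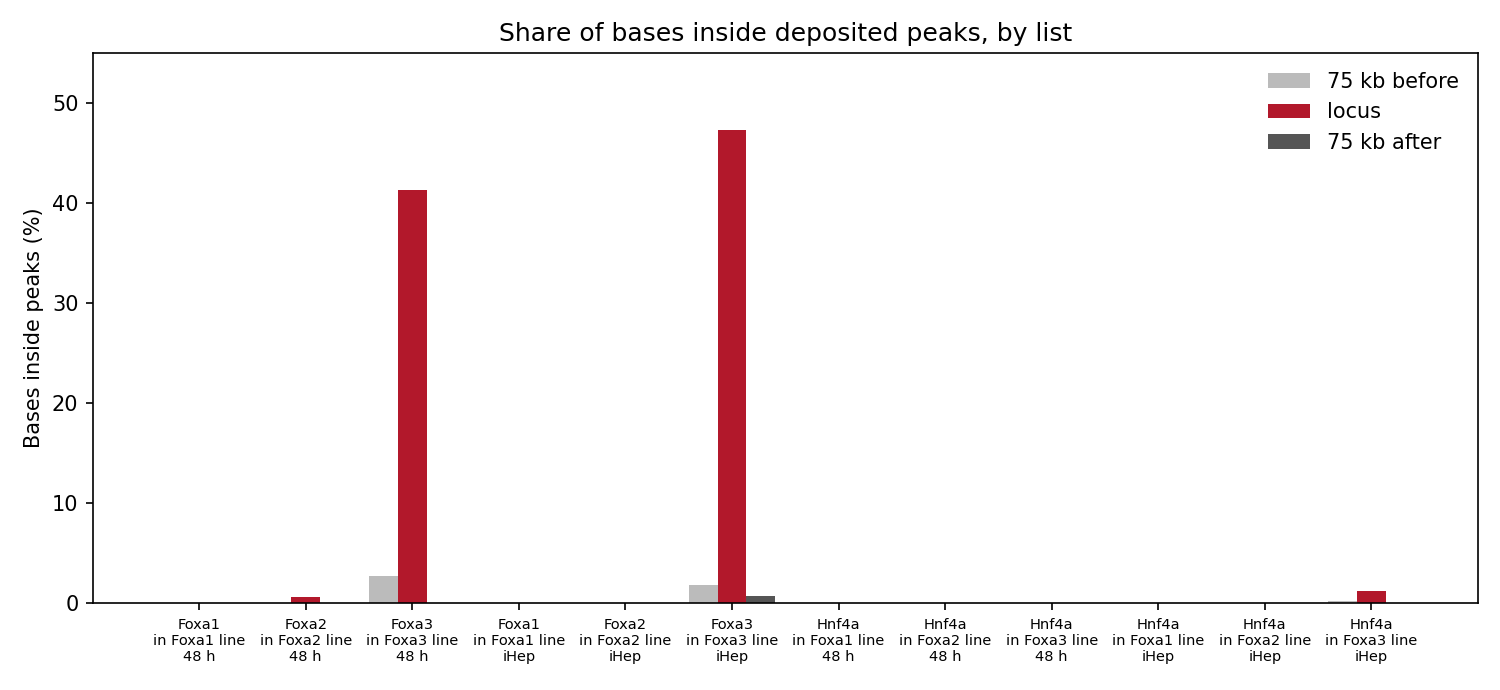
Bars give the percentage of bases inside deposited peaks in the locus and in the 75 kb before and after it, for each of the 12 lists. The Foxa3 bars of the locus stand at 41.3% and 47.4%, and every other bar is below 3%.

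The flanking 48-hour Foxa3 peaks were ordinary members of their list. At 48 hours their widths were 446, 427, 764 and 369 bp, beside a list median of 538 bp. Their scores were 9.91, 26.1, 14.3 and 9.70, beside a list median of 14.6. The last of them ended 13595 bp before the window and was the nearest 48-hour Foxa3 peak outside it, while the first inside started at 5793869. After the window the nearest 48-hour Foxa3 peak was 186171 bp away. In iHep cells the nearest Foxa3 peaks outside lay 13637 bp before and 14955 bp after the window, and the first and last inside were chr19:5793304-5793622 and chr19:5849782-5850576.

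Outside the window the nearest peaks of the other Foxa proteins lay further away than those of Foxa3. The mean tile held 0.194 Foxa1 and 0.195 Foxa2 peaks at 48 hours. In iHep cells it held 0.0982 and 0.295, so empty stretches longer than 1 tile are usual in these lists. The nearest 48-hour Foxa1 peaks lay 251181 bp before and 1226898 bp after the window. For iHep Foxa1 these distances were 1011763 bp and 1795361 bp, and for iHep Foxa2, a list of 10330 peaks, 165343 bp and 616856 bp. A 48-hour Foxa2 peak lay 169724 bp before the window, and the next after it 4046631 bp away. The 48-hour Foxa2 and Foxa3 libraries and their Hnf4a libraries share the title code R209, whose meaning is not given. Within that code the window held 13 Foxa3 peaks, 1 Foxa2 peak and 0 Hnf4a peaks in either line. The Hnf4a lists of this code were short, with 453 peaks (Foxa2 line) and 370 (Foxa3 line). At most 0.753% of tiles held a peak of either list, so 0 Hnf4a peaks was the usual count for a window.

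A pair of very wide Foxa3 peaks framed the locus, and they were the widest and next widest peaks of the whole Foxa3 list at both stages. At 48 hours the first, chr19:5793869-5804144, was 10276 bp wide with a score of 206.5. The second, chr19:5837310-5845929, was 8620 bp wide with a score of 199.5. They were 19.1 and 16.0 times as wide as the list's median peak. By score they ranked 30 and 32 of 5690, so narrower peaks elsewhere scored higher. The sources used here do not say what the score measures, and it is compared within a list alone.

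In iHep cells the first wide peak, chr19:5793849-5804113, was 10265 bp wide with a score of 89.0, and the second, chr19:5839239-5846179, was 6941 bp wide with a score of 90.0. Their widths were 41.4 and 28.0 times the median width of the iHep list. They ranked 6 and 4 of 12661 by score, so a few narrower peaks scored higher here too. As shares of their list these ranks were 0.0474% and 0.0316%, against 0.527% and 0.562% at 48 hours. The pair thus stood near the top by width and by score at both stages.

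The first wide peak had almost the same edges at both stages. In iHep cells its start lay 20 bp before and its end 31 bp before that of the 48-hour peak. The narrower of the pair lay inside the other over 99.8% of its length. The second wide peak differed more, as its iHep start lay 1929 bp further along and its end 250 bp further along. The bases it lost at its start were not empty in iHep cells: the 48-hour peak held 5 iHep peaks in all, which cover 91.0% of it.

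**Figure D3:**
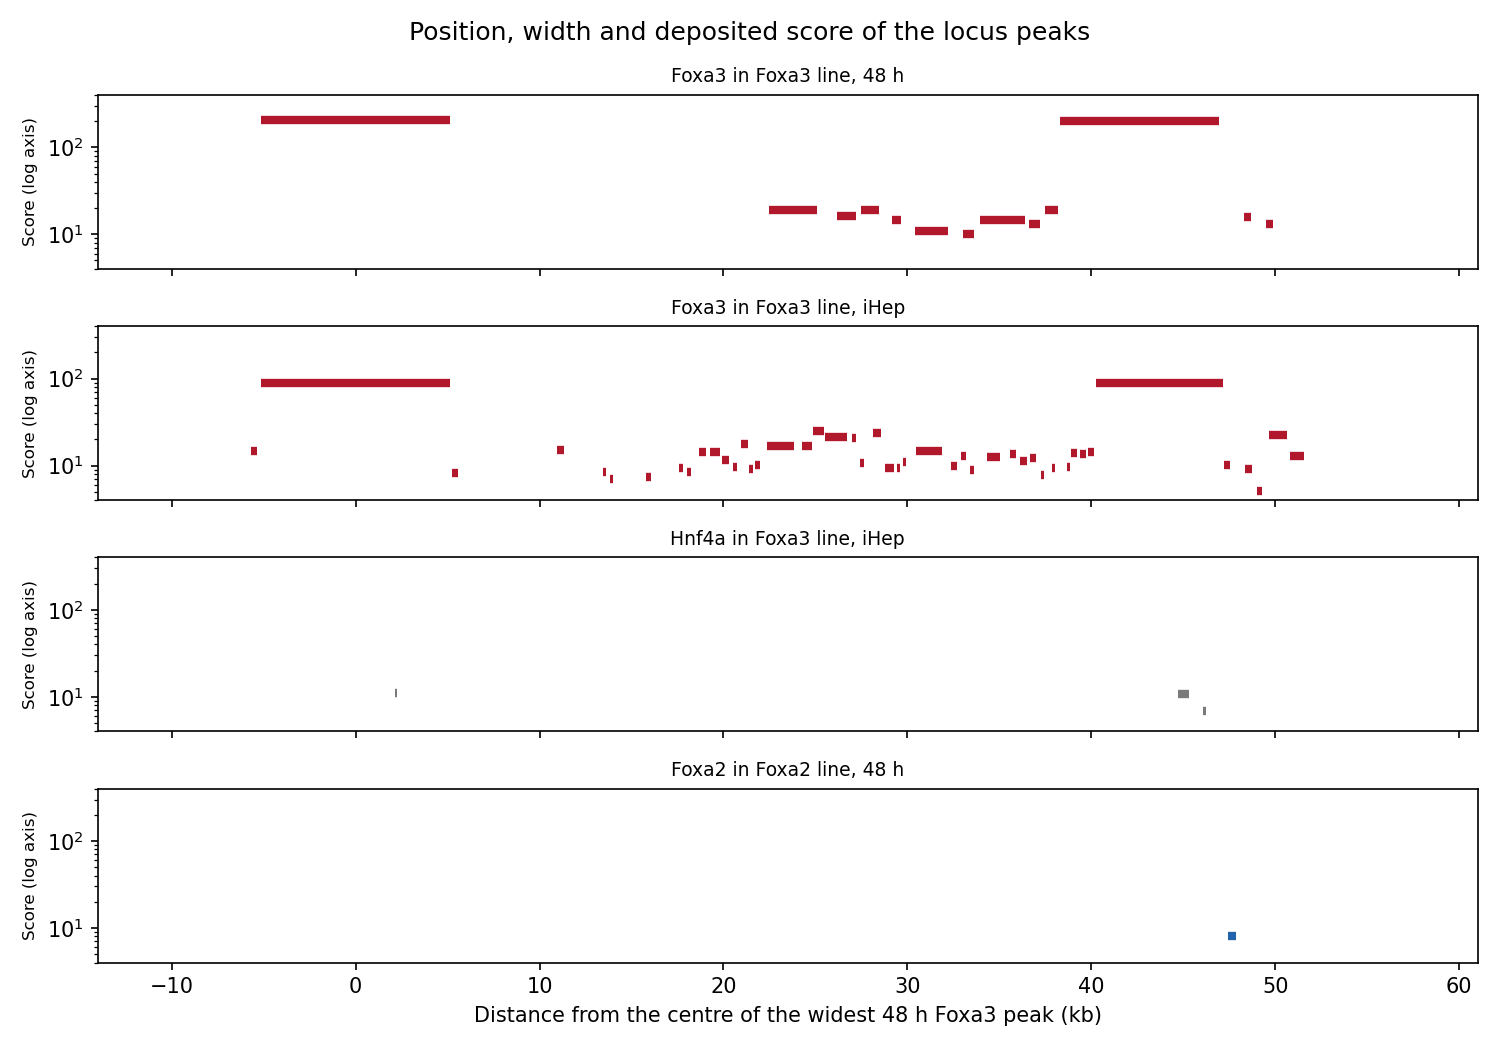
Each bar spans a peak along the distance in kb from the centre of the widest 48-hour Foxa3 peak, and its height is the deposited score on a log axis, for the 4 lists with a peak in the locus. The 2 wide Foxa3 peaks stand at 206.5 and 199.5 at 48 hours and at 89.0 and 90.0 in iHep cells, above all other peaks of the locus.

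Between the wide peaks and after the second, Foxa3 formed a chain of smaller peaks. At 48 hours the other 11 peaks had scores from 10.1 to 19.1 with a median of 14.8, about that of the whole list, and their median width was 723 bp. The widest of them, chr19:5821480-5824099, was 2620 bp wide with a score of 19.1. The lowest score, 10.1, belonged to chr19:5832018-5832636. In iHep cells the other 44 peaks had a median width of 320 bp and a median score of 11.5, below the list median of 14.6. Their highest score was 24.8, at chr19:5823899-5824481. The lowest, 5.10 at chr19:5847995-5848273, ranked 12658 of 12661.

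Read against each list, the locus peaks were broad more than they were strong. Of the 13 peaks at 48 hours 10 were wider and 8 scored higher than the list median. Of the 46 iHep peaks 33 were wider and 11 scored higher than the list median. At least 1000 bp wide were 6 of the 13 at 48 hours and 5 of the 46 in iHep cells, beside 11.9% and 3.65% of the whole lists. Width and score went together in the locus, with a Spearman rho of 0.62 over the 13 peaks and 0.69 over the 46, and with 0.58 and 0.41 over the whole lists. These are correlations across peaks of 1 library, which share its depth and its caller.

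**Figure D4:**
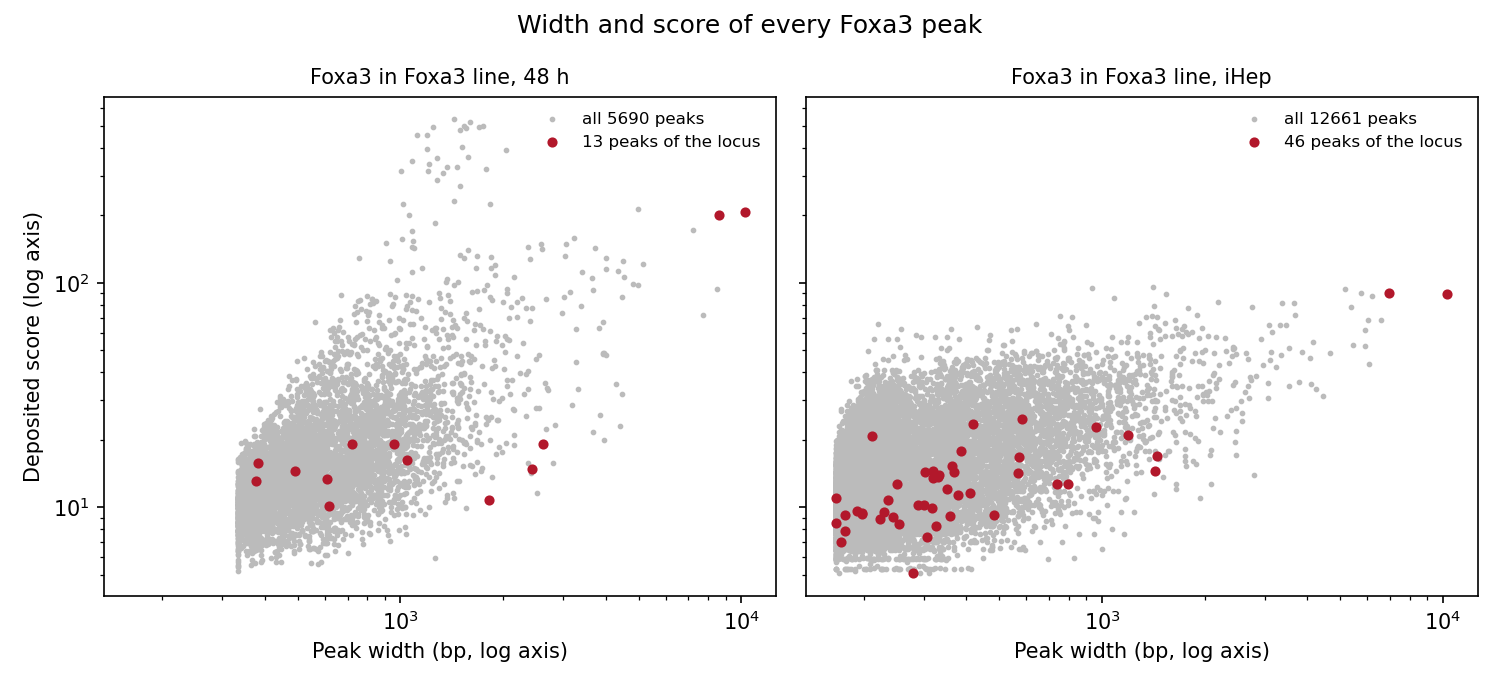
Each point is a Foxa3 peak by its width in bp and its deposited score, both on log axes, with the locus peaks in red and the rest of the list in grey. The 2 wide peaks of the locus lie at the right edge in both lists. The others lie within the list's range of scores, and some of them are wide for their list. The widest of these others is 2620 bp at 48 hours, at width rank 50 of 5690. In iHep cells it is 1450 bp, at width rank 185 of 12661.

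Beyond the locus also, wide peaks were a larger share of the Foxa3 lists than of the Foxa1 and Foxa2 lists, with 1 library each and no test of the difference. Peaks of at least 1000 bp made up 0.605% of the 48-hour Foxa1 list and 0.659% of the 48-hour Foxa2 list. In iHep cells these shares were 0.116% and 0.571%. Of at least 5000 bp there were 6 Foxa3 peaks at 48 hours and 12 in iHep cells, of which the locus held 2 at each stage. The 48-hour Foxa1 and Foxa2 lists held 2 and 3 such peaks, all at the start of chromosome 9, and the iHep Foxa1 and Foxa2 lists held 0.

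The chain was tightly spaced. The gaps between neighbouring Foxa3 peaks of the locus had a median of 731 bp at 48 hours (119 to 17335 bp over 12 gaps) and 228 bp in iHep cells (58 to 5401 bp over 45 gaps). Over the whole lists the median gap was 98066 bp and 13398 bp. Gaps of up to 500 bp were 5 of 12 and 36 of 45 in the locus, beside 7.87% and 34.9% of the lists.

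Joined across gaps of up to 2 kb, the Foxa3 peaks formed 2 blocks at 48 hours and 3 in iHep cells. At 48 hours these were the first wide peak alone and a block of 12 peaks over 27417 bp, chr19:5821480-5848896, with 75.5% of its bases inside peaks. In iHep cells the first block held 3 peaks over 11259 bp. A single peak at chr19:5809964-5810325 followed, and then came a block of 42 peaks over 38147 bp, chr19:5812430-5850576, with 63.5% of its bases inside peaks. Among all blocks joined in this way the last was the longest, and the one with the most peaks, of 7368 in the iHep Foxa3 list. The 48-hour block of 12 ranked 2 by length and 3 by number of peaks of 5021.

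All 13 of the 48-hour Foxa3 peaks overlapped an iHep Foxa3 peak, beside 74.2% of the whole 48-hour list. Of the 46 iHep peaks 25 overlapped a 48-hour Foxa3 peak, beside 43.8% of the iHep list. As the window was chosen for its crowded Foxa3 peaks, the shares of the whole lists are no like background. By bases, 26084 were inside Foxa3 peaks at both stages, which is 84.2% of those at 48 hours and 73.4% of those in iHep cells. Several iHep peaks often lay under 1 peak of the 48-hour list: 3 under chr19:5821480-5824099, 3 under chr19:5832973-5835410 and 5 under the second wide peak. The least shared was chr19:5836468-5837190, with 27.4% of its bases inside an iHep peak. The iHep list holds peaks down to 166 bp and the 48-hour list down to 334 bp, and 26 of the 46 iHep peaks were narrower than any 48-hour Foxa3 peak, beside 66.6% of the iHep list.

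Most iHep peaks without a 48-hour partner lay in a gap of the 48-hour list. At 48 hours 17335 bp after the first wide peak held no Foxa3 peak, and 14 of the 21 iHep peaks without a partner lay there. They were 166 to 565 bp wide, scored 6.98 to 17.9 and together covered 4287 of these 17335 bp. Of these 14, 1 was among the 5690 highest scoring iHep Foxa3 peaks. The median score was 9.96 for all 21 without a partner and 13.6 for the 25 with one. Coverage in steps of 5 kb rose along this stretch and past its end in iHep cells. It went from 0.720% of the bases at chr19:5805000-5809999 to 17.9%, 43.4% and 78.4% in the next 3 steps. The last step, chr19:5820000-5824999, lies mostly beyond the gap, over the 48-hour peak chr19:5821480-5824099. At 48 hours the first 3 of these steps held 0 bases inside peaks and the last 52.4%. Whether the stretch was bound below the caller's threshold at 48 hours was not tested.

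The Foxa2 peak of the locus was a weak member of its list. It lay at chr19:5846456-5846879, was 424 bp wide, and its score of 7.98 ranked 6637 of 6827. It overlapped the iHep Foxa3 peak chr19:5846245-5846533 at its edge, which 2.45% of 48-hour Foxa2 peaks do with some iHep Foxa3 peak. It overlapped 0 of the 48-hour Foxa3 peaks, which 2.36% of its list do, and lay 444 bp before the nearest. None of the 13 and 46 Foxa3 peaks overlapped a Foxa1 peak of either stage or an iHep Foxa2 peak, as the window held none of these. Over the whole 48-hour Foxa3 list 1.83% overlapped a 48-hour Foxa1 peak, 0.844% an iHep Foxa1 peak and 2.21% an iHep Foxa2 peak. Over the iHep Foxa3 list these shares were 0.648%, 0.513% and 2.01%. With 48-hour Foxa2 peaks 0 of the 13 and 1 of the 46 overlapped, beside 3.16% and 1.44% of the 2 lists. Shares this low leave few overlaps to be seen among so few peaks.

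Hnf4a was found in the locus in iHep cells of the Foxa3 line, though with 0 peaks once that list was reduced by score to the 370 peaks of its 48-hour list. Its 3 peaks all lay inside the 2 wide Foxa3 peaks, and 37.7% of that Hnf4a list overlapped an iHep Foxa3 peak. They also all lay inside the wide Foxa3 peaks of 48 hours, and 18.2% of the list overlapped a 48-hour Foxa3 peak. The window was chosen for its Foxa3 peaks, which cover 47.4% of its bases in iHep cells. The shares of the whole list are therefore no like background for these 3 peaks. The first Hnf4a peak, chr19:5801126-5801281, was 156 bp wide, the narrowest width in its list, and scored 11.0. The second, chr19:5843723-5844293, was 571 bp wide and scored 10.7. The third, chr19:5845068-5845256, was 189 bp wide with a score of 6.94 and followed the second after 774 bp. The list's median was 205 bp and 10.2, and 2 of the 3 peaks scored above the median, at ranks 997, 1097 and 2303 of 2506.

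The Hnf4a peaks did not extend over the chain of smaller Foxa3 peaks, and a gap of 42441 bp separated the first from the second. The iHep Foxa3 line libraries of Foxa3 and Hnf4a share the title code R170, which the iHep libraries of the other lines do not carry. The same Hnf4a antibody target gave 0 peaks in the window in the iHep Foxa1 and Foxa2 lines, where the nearest Hnf4a peaks lay 94959 bp and 94940 bp before it. Of all tiles 3.96% and 5.95% held an Hnf4a peak in these lines, and 4.68% in the iHep Foxa3 line. A count of 0 was thus the usual one. The input libraries of these cells were not analysed here, RNA was not measured in these files, and their part in the peaks was not tested.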

How the data were processed

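Peak lists of 12 libraries were used, each with chromosome, start, end, name and a score per peak. The score is the authors' deposited value for that peak, and no source used here says how it was computed. Per the submitters' processing notes the build was mm9 and the tools were MACS2 2.1.0, BWA 0.6.2 and bedtools 2.16.2, whose steps are not described. Each list belongs to 1 library, and the use of an input as control is not stated. Starts were raised by 1 so that the first base counts as 1. Groups follow the sample titles. The window, its flanks of 75 kb, overlaps of at least 1 bp, covered bases, ranks within a list, blocks joined over gaps of up to 2 kb and tiles of the window's length were computed with Python 3.11.15, NumPy 2.4.6, pandas 2.3.3 and SciPy 1.17.1, and drawn with matplotlib 3.10.9. Overlap, merging and coverage were tested on simulated data. Members, lists and settings were chosen with earlier results of these data known. Named peaks are all peaks of lists with up to 5 in the locus, and otherwise those at the ends, of extreme score or width, or shared with another antibody or line. Single peaks and stretches beyond this rule, such as those with several iHep peaks beneath them, were picked after their values were seen. The neighbouring genes before Malat1 are not reported here. Depths are unknown, and no test was made because each group has 1 library.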

Additional observations from a re-analysis of the deposited data

Results flagged for a closer look

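Between 48 hours and iHep cells the number of Foxa3 peaks in the locus went up by 33, from 13 in a list of 5690 to 46 in a list of 12661, and that of Foxa2 peaks went down from 1 to 0. Opposite directions in the lists as deposited are what singled this out. They do not hold at matched length: among the 5690 highest scoring iHep Foxa3 peaks 10 lay in the locus, fewer than the 13 at 48 hours. The difference was not tested, as each stage has 1 library per protein, and the Foxa2 side rests on 1 peak of low score. The Foxa2 libraries differ in title code between the stages, as the Foxa3 libraries do.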

How the results depend on the processing

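With peaks within 500 bp merged the locus held 8 Foxa3 peaks at 48 hours and 10 in iHep cells, and within 2 kb 2 and 3, since merging joins the closely spaced iHep peaks. In the upper 50% of each list by score the counts were 8 and 11, while the bases turned to 27065 at 48 hours and 23340 in iHep cells. With the Foxa lists of a stage cut to their shortest, 5690 peaks at 48 hours and 3435 in iHep cells, Foxa3 held 13 peaks over 30978 bases and 7 over 20569. These lengths differ between the stages. With the stages of a list cut to equal length, a setting chosen after seeing the data, iHep Foxa3 held 10 peaks over 22978 bases and stood below 48 hours in both, and iHep Hnf4a of that line held 0 peaks and 0 bases. The single Foxa2 peak was lost (0 peaks, 0 bases) in the upper 50% and with the lists of a stage at equal length. With peak centres within 200 bp, 7 Foxa3 peaks of each stage matched the other stage and 0 of the Hnf4a peaks matched a Foxa3 peak of either stage, which follows from the width of the Foxa3 peaks. The Foxa2 peak matched 0 iHep Foxa3 peaks there and also with at least 50% of the shorter peak. For iHep Foxa3 the share of tiles with as many peaks was 0% with tiles shifted by 50% of their length and 0.0341% with peaks within 500 bp merged, where Hnf4a of that line stood at 0.196%. Requiring the peak centre in the window changed no count. No paired analysis was possible because each group has 1 library and no test was made.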

Other observations

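Other dense tiles hold the remaining crowds of iHep Foxa3 peaks. The tile next to that of the locus in number of peaks, on chromosome 13 at 23625316 to 23700316, held 32 in iHep cells and 12 at 48 hours. Next came a tile on chromosome 6 at 52125696 to 52200696 with 28 iHep Foxa3 peaks, which also held 26 Hnf4a peaks of the iHep Foxa3 line, the most of any tile in that Hnf4a list. The locus thus differs from the chromosome 6 tile in its Hnf4a peaks, with 3 against 26, at 46 against 28 Foxa3 peaks. The 48-hour Foxa3 tiles ahead of the locus lay on chromosome 9 at 3000041 to 3075041 with 23 peaks, and on chromosomes 1 and 2 with 14 each.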
